A study of Homo sapiens with 2 samples.

Results

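The genes described here are the SR protein and heterogeneous nuclear ribonucleoprotein (hnRNP) genes, 2 families of RNA-binding splicing factors. They were taken from the gene count table by symbol, as protein-coding genes whose symbol starts with SRSF and a digit or with HNRNP, or is TRA2A or TRA2B. The rule found 41 of the 60671 distinct genes listed, 14 in the SR group, which holds the SR-like genes TRA2A and TRA2B, and 27 in the hnRNP group. No measured value entered the rule, but the genes to describe were chosen with earlier results of these data known.

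The RNA came from C4-2B cells, a human castration-resistant prostate cancer line, and 1 library was sequenced for each of 2 conditions. In the first condition cells received vehicle, and in the second they were exposed overnight to 1 µM of (R)-9b, a small-molecule inhibitor of the tyrosine kinase ACK1. The labels give no other agent or engineered allele for either condition, and their time and dose stand in a protocol text that both samples share. No replicate of a culture was sequenced, so no difference below has been set against the spread between cultures, no test of the treatment was possible, and any difference between the cultures other than (R)-9b cannot be told apart from it. Gene counts summed to 65207444 in vehicle and 57653965 in (R)-9b, and mitochondrially encoded genes held 1.49% and 9.54% of them, respectively. The labels call the cells breast cancer. KLK3, which encodes prostate-specific antigen, had 146597 counts in vehicle and 297728 in (R)-9b, and the prostate gene HOXB13 had 15362 and 18619. ESR1, the oestrogen receptor gene, had 2 counts in each library, the mammary genes SCGB2A2 and ANKRD30A had 0 in both, and PGR had 10 and 2. Other genes looked up as breast markers were present. ERBB2 had 10027 counts in vehicle and 11623 in (R)-9b, TRPS1 906 and 516, PIP 124 and 595, and GATA3 38 and 30. By a rule of more than 3 counts in both libraries, 4 of 8 breast genes and 9 of 9 prostate genes were detected. The leukocyte gene PTPRC had 0 in both.

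SR proteins bind exonic enhancers through RNA recognition motifs and recruit the splicing machinery through a domain rich in arginine and serine, which SRPK and CLK kinases phosphorylate. Proteins of the hnRNP group coat nascent transcripts and often oppose SR proteins, looping out exons or blocking splice sites. Many genes of both families control their own level: surplus protein drives inclusion of a "poison" exon with an early stop codon, or splicing of an intron downstream of the normal stop, and the resulting mRNA is destroyed by nonsense-mediated decay. Intron retention, which usually keeps the transcript in the nucleus, is another such route. A gene's total count and the make-up of its isoforms are therefore separate quantities in these families, and both were measured here.

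The sequences that carry the isoform results come first, because they show where the reading frame ends or where an intron stays in the transcript. All were read from GENCODE 29 transcripts on GRCh38, the build the files use, and are written 5′ to 3′ on the transcript strand. The first set gives the last coding bases of 5 isoforms annotated as targets of nonsense-mediated decay, with the stop codon in capitals. In SRSF3-203, SRSF6-202, SRSF7-204 and TRA2B-206 the stop lies in an exon that the principal coding isoform skips, of 456, 268, 449 and 276 bases, respectively. In SRSF7-208 the frame runs from the exon into a retained intron and stops there. At chr6:36599828-36599854 on the plus strand, chr20:43459278-43459304 on the plus strand, chr2:38749319-38749345 on the minus strand, chr3:185931772-185931798 on the minus strand and chr2:38749516-38749542 on the minus strand, in this order, they read:
SRSF3-203: atcatgtctcttctcaccaccctcTGA
SRSF6-202: atgacgacagcagccttttgccatTAG
SRSF7-204: tttcttcgtttgagtcagtcgcctTGA
TRA2B-206: gagtatttgaagctcaggaataagTGA
SRSF7-208: cgaagaagaagcaggtatttatttTAA

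The stop codon lay 548 bases upstream of the last exon junction in SRSF3-203, 534 in SRSF6-202, 697 in SRSF7-204, 1015 in TRA2B-206 and 1138 in SRSF7-208. The second set gives the splice sites of whole introns kept in isoforms of SRSF5, HNRNPH1 and SRSF7, 3 of the 5 genes whose non-coding share differed by 10 points or more, with the intron's first and last dinucleotide in capitals. Intron 6 of SRSF5 spans 1215 bases at chr14:69769252-69770466 on the plus strand and is kept in SRSF5-212 and SRSF5-207. Intron 2 of HNRNPH1 spans 206 bases at chr5:179621036-179621241 on the minus strand and is kept in HNRNPH1-223. Intron 3 of SRSF7 spans 875 bases at chr2:38748654-38749528 on the minus strand and is the one that holds the stop of SRSF7-208.
SRSF5 intron 6, 5′ splice site: cagctggcagGTttgttgaa
SRSF5 intron 6, 3′ splice site: caattatcttgtgttaAGgatc
HNRNPH1 intron 2, 5′ splice site: tatgttgaagGTttgattta
HNRNPH1 intron 2, 3′ splice site: tctaagcacctctttcAGtatt
SRSF7 intron 3, 5′ splice site: gaagaagcagGTatttattt
SRSF7 intron 3, 3′ splice site: ctctaacttgaaaaatAGgtca

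The first comparison asked how the total RNA of these genes differed between the libraries. Counts were scaled with the trimmed mean of M values (TMM), and each ratio is (R)-9b over vehicle with an exact 95% interval that covers counting error only. Of the 41 genes, 39 had at least 10 counts over both libraries and were compared. SRSF12 had 0 counts in vehicle, which allows up to 3, and 2 in (R)-9b, and HNRNPUL2-BSCL2, a read-through of HNRNPUL2 into its neighbour, had 0 in both. All exon bases of the read-through are shared with other genes and its isoform had 4484.9 and 2905.8 estimated counts, so the 0 is not a measure of its level. Against a size rule of 1.5-fold, 1 gene was higher, 4 were lower and 34 lay within. Over all 23446 genes compared, 20.2% were higher and 18% lower by this rule, and over protein-coding genes alone 16.4% and 14.7%. This background was not matched to these genes for counts per gene. Ratios vary more where counts are few, and most of these genes have many counts, so no difference from the background is drawn. In bulk RNA, fewer cells that express a gene and less RNA per cell cannot be told apart.

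The median ratios of the 2 families lay on opposite sides of 0, with genes of each family on both sides. In the SR group the median log2 ratio was 0.26 over 13 genes, 8 genes had an interval wholly above 0 and 4 had one wholly below. In the hnRNP group the median was -0.24 over 26 genes, 2 intervals were wholly above 0 and 16 wholly below. Over all 23446 genes 6977 intervals were wholly above 0 and 7293 wholly below. The median over all genes compared was -0.01. Summed counts of the SR group were 76425 in vehicle and 67023 in (R)-9b, a log2 ratio of 0.05, and those of the hnRNP group were 417473 and 305227, a log2 ratio of -0.21. Within the SR group the 5 genes below 0 include several with many counts, so the sum hardly moved while the median gene was higher.

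**Figure D1:**
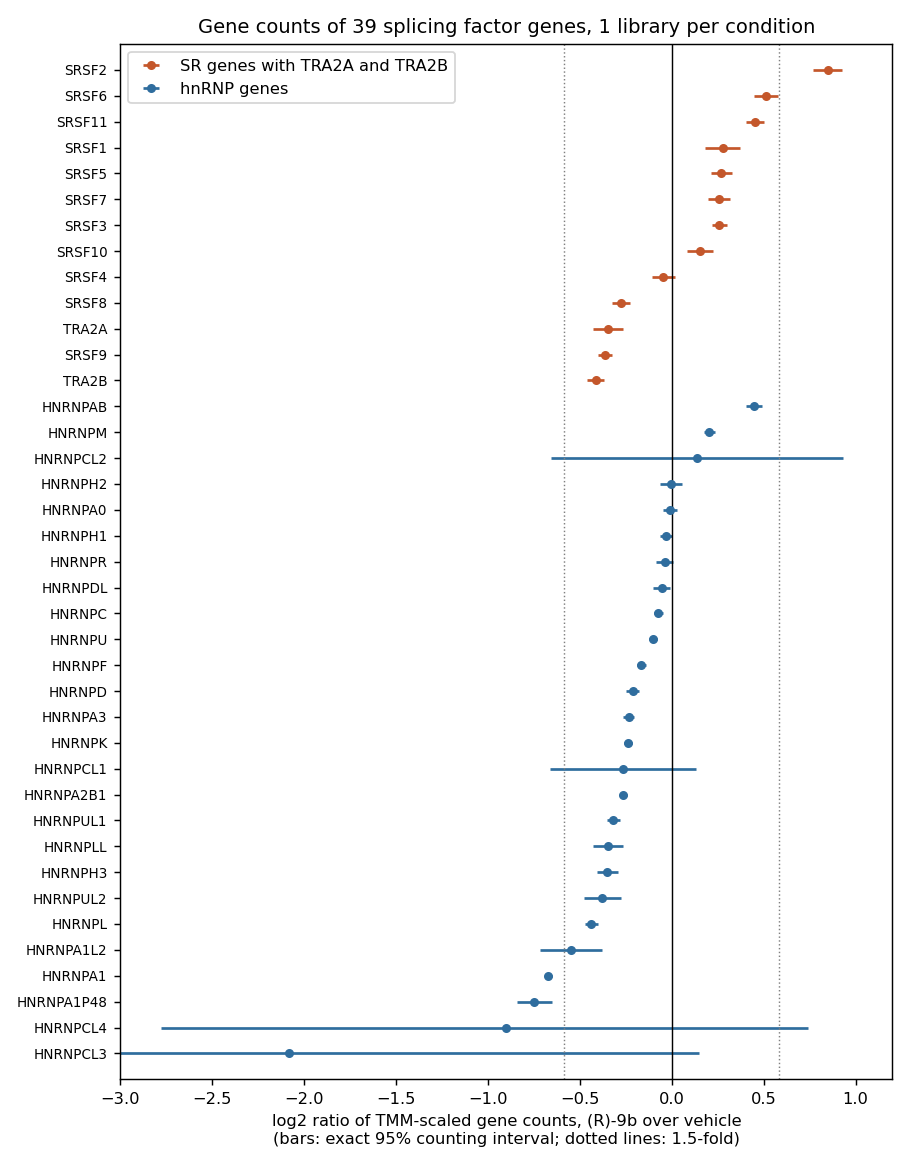
The log2 ratio of TMM-scaled gene counts, (R)-9b over vehicle, is plotted on the horizontal axis for the 39 genes compared, SR genes above and hnRNP genes below, each sorted by ratio, with exact 95% counting intervals as bars and 1.5-fold as dotted lines. SRSF2 is the only point right of the upper dotted line, 23 of the 26 hnRNP points lie left of 0, and the interval of HNRNPCL3 runs past the axis to -5.32.

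Among SR genes SRSF2, which encodes the nuclear speckle protein SC35, had the highest ratio. Its counts were 2171 in vehicle and 3315 in (R)-9b, a ratio of 1.8 (log2 0.85, interval 0.77 to 0.93). SRSF6, an SR protein with paired RNA recognition motifs, followed with 3583 and 4337 counts (log2 0.51, interval 0.45 to 0.58). SRSF11, a component of nuclear speckles, had 6708 and 7785 (log2 0.45, interval 0.40 to 0.50). These 3 genes stood above the other SR genes without overlap of intervals with them.

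SRSF1, the founding SR protein, had 1757 counts in vehicle and 1805 in (R)-9b (log2 0.28, interval 0.18 to 0.37). Of its exon bases 60.7% are shared with other annotated genes, and its isoforms held 286 estimated counts per 100 gene counts, against a median of 36.7 over genes. SRSF3, SRSF5 and SRSF7 lay close together, at log2 0.26, 0.27 and 0.26. SRSF10, which can act as a repressor when dephosphorylated, was at 0.15, and the interval of SRSF4 (-0.11 to 0.01) included 0. Exon bases are also shared for SRSF2 (36.7%, chiefly with MFSD11 on the opposite strand) and SRSF9 (46.2%, with GATC), and how far reads of these partners enter the counts was not tested.

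At the low end of the SR group stood both TRA2 genes, which encode SR-like activators of exon inclusion. TRA2B had 9780 counts in vehicle and 6230 in (R)-9b (log2 -0.41, interval -0.46 to -0.37), and TRA2A had 3136 and 2090 (log2 -0.35, interval -0.43 to -0.27). SRSF9, a close relative of SRSF1, had 13401 and 8827 (log2 -0.36, interval -0.40 to -0.33). SRSF8, a gene related in sequence to SRSF2, had 8273 and 5782 (log2 -0.28, interval -0.33 to -0.23). SRSF9 and SRSF8 thus lay below 0 while their relatives SRSF1 and SRSF2 lay above it, whereas TRA2A and TRA2B lay on the same side, as did SRSF3 and SRSF7.

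HNRNPA1, which represses exons by binding silencer elements, had the most counts of all 41 genes. It fell from 62184 counts in vehicle to 33097 in (R)-9b, a ratio of 0.628 (log2 -0.67, interval -0.69 to -0.65). HNRNPA1P48, named as a copy of HNRNPA1 but listed as protein-coding, had 2640 and 1334 (log2 -0.75, interval -0.84 to -0.65), and the copy HNRNPA1L2 had 787 and 457 (log2 -0.55, interval -0.72 to -0.38). Reads of these near-identical genes can be assigned to any copy, so they are not independent, and HNRNPA1 summed with all its named copies, 77 rows, was 70489 and 37480 (log2 -0.67).

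The remaining calls rest on few reads. HNRNPCL3 had 10 counts in vehicle and 2 in (R)-9b, HNRNPCL4 had 11 and 5, and both intervals include 0. With HNRNPCL1 (133 and 94) and HNRNPCL2 (30 and 28) they are near-identical copies of HNRNPC, and HNRNPC summed with them gave a log2 ratio of -0.07. With HNRNPA1, its copies and the HNRNPCL genes left out, 0 genes were lower by 1.5-fold.

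The other abundant hnRNP genes had smaller differences. HNRNPA2B1, a partner of HNRNPA1 in core hnRNP particles, had 54078 counts in vehicle and 38219 in (R)-9b (log2 -0.26, interval -0.28 to -0.24). HNRNPU, which also scaffolds chromatin, had 40289 and 31786 (log2 -0.10, interval -0.13 to -0.08), and HNRNPK, which binds cytosine-rich RNA through KH domains, had 39840 and 28623 (log2 -0.24, interval -0.26 to -0.22). HNRNPC, which binds uridine tracts, had 32815 and 26448 (log2 -0.07, interval -0.10 to -0.05). All 4 lay below 0, and none was past 1.5-fold.

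HNRNPL and HNRNPLL, which bind CA repeats, were at log2 -0.44 and -0.34. HNRNPUL2 (-0.38), HNRNPH3 (-0.35), HNRNPUL1 (-0.32), HNRNPA3 (-0.23), HNRNPD (-0.21), which controls decay of AU-rich mRNA, HNRNPF (-0.17) and HNRNPDL (-0.06) also had intervals below 0. HNRNPUL2 shares 44.1% of its exon bases with the read-through HNRNPUL2-BSCL2, and its isoforms held 147 estimated counts per 100 gene counts. Exon bases are also shared for HNRNPH2 (16.3%) and HNRNPU (15.6%). What this sharing does to the gene counts was not tested. The intervals of HNRNPA0, HNRNPH1, HNRNPH2, HNRNPR, HNRNPCL1 and HNRNPCL2 included 0. The hnRNP genes with intervals above 0 were HNRNPAB, with 7772 counts in vehicle and 8979 in (R)-9b (log2 0.45, interval 0.40 to 0.49), and HNRNPM, with 17970 and 17546 (log2 0.20, interval 0.17 to 0.23).

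Levels of different genes can be compared only per length. Estimated transcript counts per base, summed over the isoforms listed and scaled to the same total in each library, placed HNRNPA1 first at 1200 in vehicle and 679 in (R)-9b, and HNRNPA2B1 next at 907 and 675. In (R)-9b these levels were close, but 2 coding GENCODE 29 isoforms of HNRNPA1 are not listed while all isoforms of HNRNPA2B1 are. The levels of HNRNPA1 and HNRNPA2B1 are therefore not a like comparison. SRSF9 had the highest level of the SR group over the isoforms listed, at 410 in vehicle and 290 in (R)-9b. SRSF2, SRSF3, SRSF7, SRSF10 and TRA2B each lack a coding isoform in this sum. SRSF6 does too, since several of its isoforms have no GENCODE 29 length, among them the coding SRSF6-204 at 622.4 and 711 estimated counts.

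The second comparison asked whether the make-up of isoforms differed. The share of a gene's estimated transcript counts in non-coding isoforms, meaning those annotated as decay targets, retained introns or processed transcripts, was computed in each library. A total of 31 genes had at least 20 estimated counts in each library and both kinds of isoform. The transcript table does not cover every isoform: for 16 of the 41 genes at least 1 coding GENCODE 29 isoform is not among those used here, among them SRSF3-202 and SRSF7-201, the principal isoforms of their genes, and HNRNPA1-201 and HNRNPH1-201. Shares are therefore shares of the isoforms listed, 20 of the 31 genes have all their GENCODE 29 isoforms listed, and for the others non-coding estimated counts per 100 gene counts serve as a second measure. Of the 11 others, the measure is given with the gene for SRSF2, SRSF3, SRSF7, TRA2B and HNRNPH1. It was 17 in vehicle and 15.3 in (R)-9b for HNRNPA1, 17.9 and 17.1 for HNRNPU, 8.28 and 8.49 for HNRNPH3, 3.6 and 4.04 for SRSF10, 1.48 and 2.61 for HNRNPD, and 0.741 and 0.899 for HNRNPC. Estimated counts are split by a model where isoforms overlap, so intervals on them understate the error.

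The non-coding share was higher in (R)-9b by 10 percentage points or more in 4 genes, SRSF5, SRSF11, HNRNPH1 and SRSF7, and lower in 1, SRSF2. Over the 9895 protein-coding genes that met the same criteria, 10.3% were higher and 4.78% lower. The members' shares, 12.9% higher and 3.23% lower, were near that background. Among genes with at least 500 estimated counts in each library, 5.29% were higher and 1.44% lower. All members but HNRNPA1P48 reached that level, so this background is the closer one in counts, and the members' shares were above it. They rest on 4 genes and 1 gene, and the difference was not tested. The median difference was 0.35 points over the 31 genes and 0.27 points over all 9895.

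**Figure D2:**
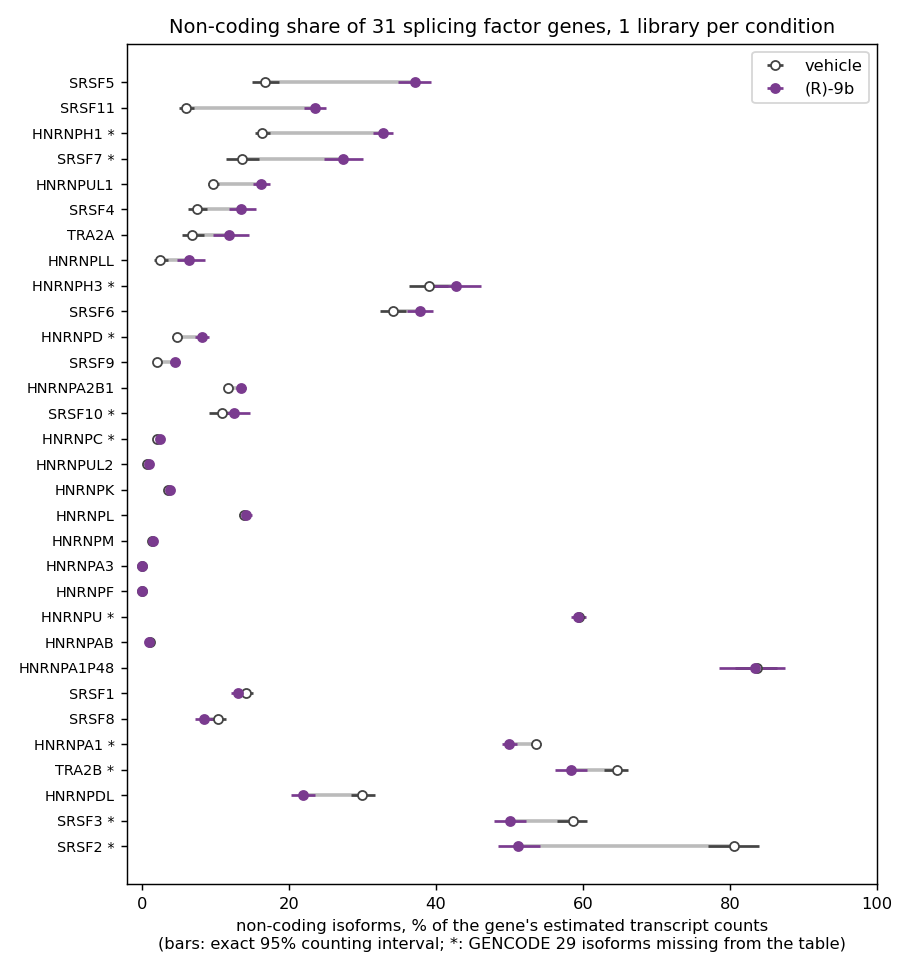
The share of estimated transcript counts in non-coding isoforms, in percent, is plotted for the 31 genes in vehicle (open) and (R)-9b (filled), sorted by the difference, with exact 95% counting intervals as bars and a star where GENCODE 29 isoforms are missing from the table. SRSF5, SRSF11, HNRNPH1 and SRSF7 shift right by 13.8 to 20.3 points, SRSF2 shifts left, and most genes stay close to their vehicle value.

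SRSF5, an SR protein that shuttles between nucleus and cytoplasm, had the largest rise. Its non-coding share was 16.8% in vehicle (interval 15 to 18.6) and 37.1% in (R)-9b (34.8 to 39.4), with all its isoforms listed. SRSF5-212, which keeps intron 6 shown above, went from 55.5 estimated counts to 300.8, or 3.28% to 17.2% of the gene, and SRSF5-207, which keeps introns 5 and 6, from 21.4 to 147.5. SRSF5-211, a decay isoform with its stop inside the same intron, went from 5.6 to 92.1. These isoforms all keep the whole or part of intron 6, while the coding isoforms SRSF5-204 and SRSF5-217 had log2 ratios of 0.15 and 0.06, with intervals that include 0. Another coding isoform, SRSF5-201, went from 122.1 to 19.8 estimated counts (log2 -2.36, interval -3.12 to -1.67), and SRSF5-202 from 37.7 to 0, which also adds to the non-coding share. With estimated counts divided by isoform length the gene's difference was 6.94 points, under the 10-point rule.

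SRSF11 also has all its isoforms listed. Its non-coding share was 6.01% (5.1 to 7.04) in vehicle and 23.5% (22 to 25.1) in (R)-9b, nearly all of it in processed transcripts, a class with no annotated reading frame. SRSF11-214, which starts with an exon that the principal isoform lacks, went from 61.8 to 422.8 estimated counts (log2 3.02, interval 2.63 to 3.43). The principal coding isoform SRSF11-202 had 743.2 and 565.5 estimated counts (log2 -0.15, interval -0.31 to 0.01). Non-coding estimated counts per 100 gene counts were 2.17 and 8.9.

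SRSF7, which also takes part in mRNA export, moved within the decay class, and its non-coding share was 13.6% (11.5 to 16) in vehicle and 27.4% (24.8 to 30.1) in (R)-9b. SRSF7-208, which ends in the retained intron 3 printed above, went from 21.1 to 239.8 estimated counts, or 2.2% to 21.2% of the listed isoforms. The principal isoform is not among them. SRSF7-204, which carries the poison exon in the same intron, went from 100.5 to 57.3, or 10.5% to 5.08%. So the estimated counts of 2 decay isoforms that use the same intron moved in opposite directions. The intron-retaining one went up and the exon-including one down. The poison exon of SRSF7-204 lies inside the intron that SRSF7-208 keeps. Whether estimated counts passed between these 2 isoforms was not tested. Non-coding estimated counts per 100 gene counts were 2.89 and 6.75.

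HNRNPH1, which binds runs of guanine, was the only hnRNP gene past 10 points. Its non-coding share was 16.4% (15.4 to 17.4) in vehicle and 32.8% (31.4 to 34.2) in (R)-9b, and the retained-intron class alone went from 7.73% to 26%. HNRNPH1-223, which keeps intron 2 shown above, went from 89.7 to 278.8 estimated counts, and HNRNPH1-206, which keeps introns 9 and 10, from 9.3 to 197.4. Its decay isoforms did not share the rise, at 8.49% and 6.62%. Non-coding estimated counts per 100 gene counts were 5.05 and 10.1.

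SRSF2 had the opposite sign. Its non-coding share was 80.6% (77 to 83.9) in vehicle and 51.2% (48.4 to 54.1) in (R)-9b. The coding isoform SRSF2-203 went from 66.2 to 529.9 estimated counts, while the decay isoform SRSF2-208, whose stop is that of the coding isoform and lies 105 bases upstream of its last junction, went from 317 to 399.9. The fall in share therefore came from more coding counts and not from fewer decay counts. A coding isoform of SRSF2 is not among those used here, and per 100 gene counts the non-coding estimated counts were 19.5 in vehicle and 18.8 in (R)-9b, so this second measure hardly differed.

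In SRSF3 and TRA2B the decay share was lower in (R)-9b and the retained-intron share higher, and the net non-coding share was lower by 8.52 and 6.15 points, under the 10-point rule but beyond counting error in both. In SRSF3, whose protein regulates alternative splicing and mRNA export, decay isoforms went from 33% to 15.5% and retained-intron isoforms from 25.6% to 34.6%. The poison-exon isoform SRSF3-203 went from 645.1 to 167 estimated counts (log2 -1.70, interval -1.96 to -1.46), and the retained-intron isoform SRSF3-207 from 479.8 to 682.5 (log2 0.76, interval 0.59 to 0.93). SRSF3-207 keeps no whole intron. It starts inside intron 3, and the part it keeps holds the poison exon of SRSF3-203. Whether estimated counts passed between these 2 isoforms was not tested. The net non-coding share was 58.6% (56.5 to 60.6) and 50.1% (47.9 to 52.2), and non-coding estimated counts per 100 gene counts were 13.4 and 10.8.

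In TRA2B decay isoforms went from 36.4% to 21.7% and retained-intron isoforms from 28% to 36.7%. The poison-exon isoform TRA2B-206 went from 1181.3 to 441.5 estimated counts (log2 -1.17, interval -1.33 to -1.01), and TRA2B-215, which keeps part of intron 1 and starts there, from 66.6 to 210.5 (log2 1.90). Other retained-intron isoforms of TRA2B went the other way, TRA2B-207 from 371.1 to 165.8 (log2 -0.91) and TRA2B-213 from 462.3 to 299.1 (log2 -0.38), so the higher share of this class did not reflect a rise of all its isoforms. The net share was 64.6% (62.9 to 66.2) and 58.4% (56.2 to 60.6), and non-coding estimated counts per 100 gene counts were 21.4 and 19. For both genes the gene count gave a ratio within 1.5-fold, above 0 in SRSF3 and below 0 in TRA2B.

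**Figure D3:**
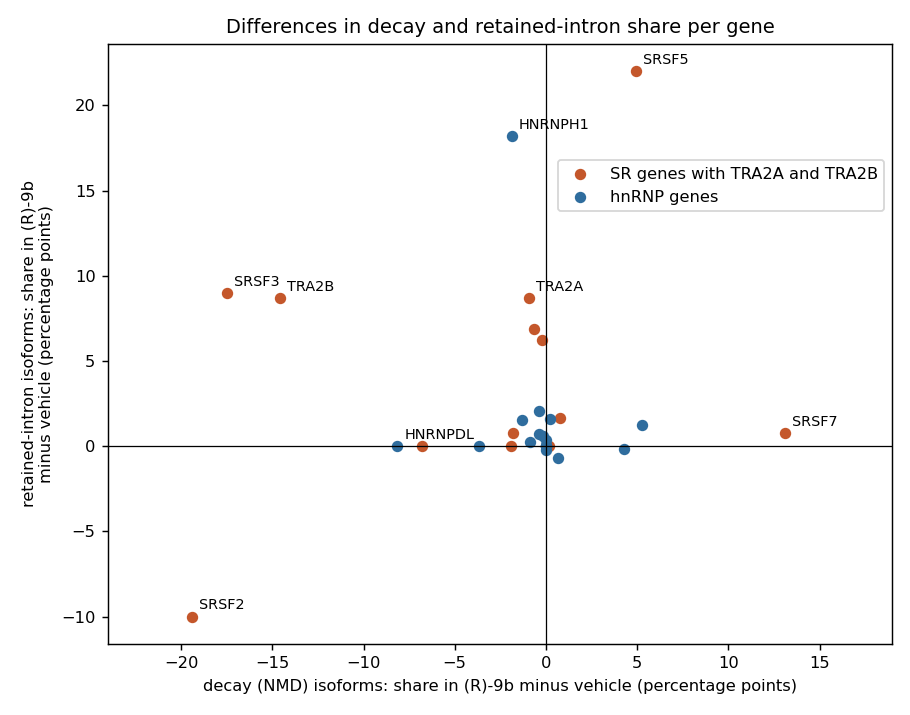
The difference between (R)-9b and vehicle in the share of retained-intron isoforms (vertical, percentage points) is plotted against that in the share of decay isoforms (horizontal, percentage points) for the 31 genes, with names where either is 8 points or more. SRSF3 and TRA2B lie at upper left, SRSF2 at lower left, SRSF7 at right, and SRSF5 and HNRNPH1 at the top.

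The genes with the largest non-coding shares in either library were HNRNPA1P48, SRSF2, TRA2B, HNRNPU and SRSF3. HNRNPA1P48 was at 83.7% (80.7 to 86.4) in vehicle and 83.4% (78.5 to 87.5) in (R)-9b, all in 1 processed transcript. HNRNPU was at 59.5% (58.6 to 60.3) and 59.4% (58.4 to 60.4), chiefly in the decay isoform HNRNPU-228, with 4816 and 3760.7 estimated counts, and a coding isoform of HNRNPU is not among those used here. In neither gene did the share differ beyond counting error. HNRNPA1 was close behind at 53.6% and 50%, although its decay isoform HNRNPA1-205 had a log2 ratio of -0.82, since its listed coding isoform HNRNPA1-204 had one of -0.72.

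Among the remaining SR genes, the share was 34.1% and 37.8% in SRSF6, where the poison-exon isoform SRSF6-202 went from 19% to 12.2% and the processed transcript SRSF6-206 from 15.2% to 25.6%. It went from 7.5% to 13.5% in SRSF4, from 6.85% to 11.9% in TRA2A, from 2% to 4.44% in SRSF9 and from 10.9% to 12.5% in SRSF10. It was 14.1% and 13.1% in SRSF1, and 10.3% and 8.39% in SRSF8. In SRSF4, SRSF10 and TRA2A the retained-intron share was higher in (R)-9b by 6.21, 6.85 and 8.7 points, respectively.

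Among the remaining hnRNP genes, HNRNPDL, which regulates its own mRNA by splicing, had the lowest difference of this family, from 30% (28.4 to 31.7) to 21.9% (20.3 to 23.5), with all isoforms listed. Its decay isoform HNRNPDL-202 went from 652.3 to 194.1 estimated counts, and HNRNPDL-209 from 23.4 to 0. The decay isoforms HNRNPDL-203, from 121.2 to 233.6, and HNRNPDL-205, from 127.0 to 145.2, went the other way. Its coding isoforms were also split. HNRNPDL-204 went from 100.7 to 396.9, HNRNPDL-210 from 116.0 to 190.8 and HNRNPDL-201 from 319.6 to 350.9. The most abundant one, HNRNPDL-206, went from 1410.6 to 1026.6, and HNRNPDL-207 from 204.3 to 79.6. The share rose from 9.72% to 16.2% in HNRNPUL1, from 2.45% to 6.46% in HNRNPLL and from 4.77% to 8.19% in HNRNPD, and was 39% and 42.8% in HNRNPH3 with overlapping intervals. It differed by less than 2 points in HNRNPA2B1, HNRNPA3, HNRNPAB, HNRNPC, HNRNPF, HNRNPK, HNRNPL, HNRNPM and HNRNPUL2, and was 0 in both libraries in HNRNPA3 and HNRNPF. Shares were not computed for SRSF12, HNRNPA0, HNRNPH2, HNRNPA1L2, HNRNPR, HNRNPUL2-BSCL2 and the 4 HNRNPCL genes, which lacked a coding or non-coding isoform listed under their gene identifier or enough counts. Isoforms of HNRNPR stand in the table under another gene identifier and were not used here.

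**Figure D4:**
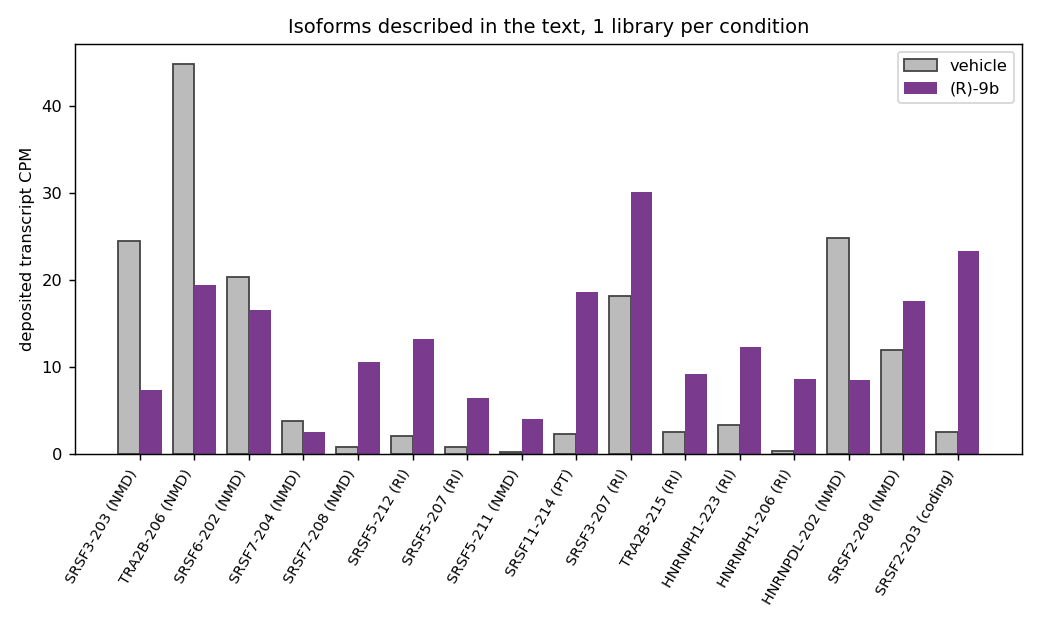
Deposited transcript CPM of 16 isoforms named in the text is plotted as bars for vehicle (grey) and (R)-9b (purple), with the annotated class in brackets (NMD, decay target; RI, retained intron; PT, processed transcript). The poison-exon isoforms SRSF3-203, TRA2B-206, SRSF6-202 and SRSF7-204 have the taller bar in vehicle, and the retained-intron isoforms drawn have the taller bar in (R)-9b. The isoforms were picked and do not stand for their classes. Among those not drawn, the retained-intron isoforms TRA2B-207 and TRA2B-213 were lower in (R)-9b, and the poison-exon isoforms SRSF3-204 and SRSF9-206 were higher.

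Isoform ratios avoid the question of which other isoforms are listed. Of 60 retained-intron isoforms of these genes with at least 20 estimated counts over both libraries, 34 were 1.5-fold higher in (R)-9b and 12 lower. The background was skewed the same way: of 7728 such isoforms over all protein-coding genes, 51% were higher and 16% lower. The median log2 ratio was 1.38 over the 20 isoforms of SR genes, 0.96 over the 40 of hnRNP genes and 0.63 over all. More retained-intron isoforms rose than fell in these genes, as over the table as a whole.

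Of 38 decay isoforms of these genes, 10 were 1.5-fold higher and 13 lower, against 27.5% higher and 31.8% lower of 5215 over all protein-coding genes. In SR genes 7 were higher and 3 lower of 16, and in hnRNP genes 3 were higher and 10 lower of 22. The decay share per gene gave another picture, with 4 SR genes above 0 and 9 below at a median of -0.93 points, and 4 hnRNP genes above and 8 below at a median of 0 points, and no difference between the families was tested. Of 144 coding isoforms, 20 were higher and 36 lower, against 21.9% and 25.5% of 30859 over all. The coding isoforms of hnRNP genes, with 13 higher and 31 lower of 104, had a median log2 ratio of -0.25, close to that of the gene counts.

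**Figure D5:**
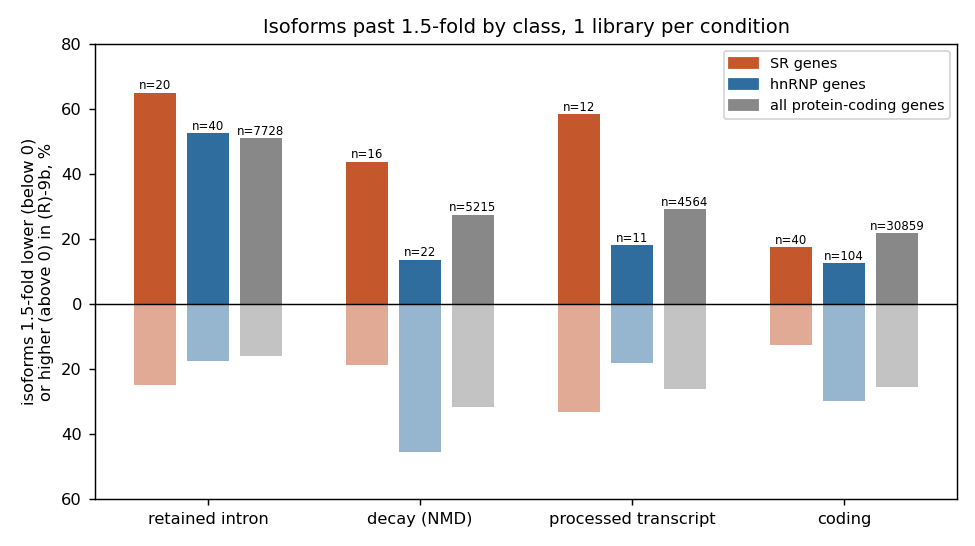
For 4 classes of isoform, the percentage of isoforms at least 1.5-fold higher in (R)-9b is drawn upwards and the percentage at least 1.5-fold lower downwards, for SR genes (orange), hnRNP genes (blue) and all protein-coding genes (grey), with the number of isoforms above each bar. Retained-intron bars reach above 50% in all 3 sets, and the decay isoforms of hnRNP genes have the longest downward bar, at 45.5%.

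The decay isoforms were further sorted by where the stop codon lies. In SR genes 8 isoforms of 7 genes have it in an exon that the principal isoform skips, the classical poison exon, and 5 of them had a lower share in (R)-9b and 3 a higher one. The lower ones were SRSF3-203, SRSF4-206, SRSF6-202, SRSF7-204 and TRA2B-206, and the higher ones SRSF3-204, SRSF9-206 and SRSF11-212. Of these, SRSF4-206, at 19.1 and 12.5 estimated counts, and SRSF11-212, at 9 and 13.2, had log2 intervals that include 0. SRSF3-204 went from 106.3 to 169.2 estimated counts while SRSF3-203 of the same gene fell, so direction was not shared even within a gene. In hnRNP genes 5 isoforms of 4 genes are of this kind, 2 with a lower share and 3 with a higher one. Decay isoforms of all genes were not sorted this way, so these counts have no background beside them.

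Genes that act with these families were examined as lists, whose counts stand beside the same backgrounds as above, 16.4% of protein-coding genes 1.5-fold higher and 14.7% lower, and 10.3% of genes with a non-coding share higher by 10 points and 4.78% lower. Among 12 SR and splicing kinase genes with their partners, 2 were 1.5-fold higher and 0 lower, with a median log2 ratio of -0.03. CLK2, which phosphorylates SR proteins in the nucleus, had 2913 counts in vehicle and 4534 in (R)-9b (log2 0.88, interval 0.81 to 0.94), and SRPK3 had 91 and 180 (log2 1.22, interval 0.85 to 1.60). SRPK1, the main cytoplasmic SR kinase, was at 0.42 and CLK1 at -0.31. The non-coding share of CLK2 was 31% and 59.4%, and that of CLK1 38.1% and 50.6%, with all isoforms of both listed, and 3 of 9 kinase genes were higher by 10 points or more.

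Of 22 SR-related and speckle protein genes, 4 were higher and 0 lower, at a median of 0.20. They were RSRP1, with 243 and 1071 counts (log2 2.38, interval 2.18 to 2.59), PNISR (0.95), LUC7L3 (0.91) and LUC7L (0.68). SRRM2, a scaffold of nuclear speckles, had 32335 and 37849 counts (log2 0.47). Its non-coding share was 55.6% and 79.6%, with some isoforms not among those used here, and 5 of 21 genes of this list were higher by 10 points or more and 1 lower.

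Of 42 other splicing regulators compared, 5 were higher and 6 lower. ESRP1, which sets epithelial splicing patterns, had 13774 counts in vehicle and 3916 in (R)-9b (log2 -1.58, interval -1.63 to -1.53), MBNL2 was at -0.87 and KHDRBS3 at -0.80. RBM6 (0.74), MATR3 (0.72, on 55 and 77 counts) and RBM25 (0.69) were the highest with at least 100 counts over both libraries, and PTBP1, a repressor that binds pyrimidine tracts, was at -0.03. The median of the list was -0.03, and ESRP1 had a larger fall than any SR or hnRNP gene except HNRNPCL3, which rests on 12 counts. The non-coding share was higher by 10 points or more in 8 of 37 genes of this list and lower in 1.

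Of 42 snRNP and auxiliary factor genes, 4 were higher and 0 lower, with PRPF38B at 0.75, DHX15 at 0.74 and SNRNP70, a U1 protein, at 0.63, while the remaining one, U2AF1, had 34 and 52 counts. SF3B1, the branch-point factor of the U2 snRNP, was at -0.13, with a non-coding share of 31.2% and 51.8%, again with some isoforms not among those used here. That share was higher by 10 points or more in 4 of 37 genes of this list and lower in 1. Of 17 exon junction complex and decay factor genes, 0 were past 1.5-fold in either direction at a median of -0.02, and UPF1, the central decay helicase, was at 0.29 (interval 0.25 to 0.33). The gene counts of the decay factors thus stayed within 1.5-fold in these libraries. Their non-coding share was higher by 10 points or more in 1 of 16 genes, UPF2 (0% and 72.8%). It was lower in 1, SMG6 (80.5% and 33.8%), and both genes have isoforms not among those used here.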

How the data were processed

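RNA of C4-2B cells given vehicle or (R)-9b was analysed, 1 library per condition. The authors deposited gene counts, whole numbers without normalization, and estimated counts per transcript. They also deposited the same values as CPM and moderated log2 CPM, whose moderation is not given in the sources used here. The submitters' processing notes name hg38, STAR 2.5.1a, featureCounts 1.4.6-p5 and Salmon 0.8.2, while the methods of the paper give another STAR version. Moderated log2 values of transcripts, also deposited, were left out because the estimated counts were at hand. Columns of other samples numbered 0.

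Repeated gene identifiers were dropped, and counts were scaled by TMM in edgeR 4.0.16 (R 4.3.3). Summed transcript counts had their own TMM scaling. No count model was fitted. Exact (Clopper-Pearson) 95% intervals, on rounded estimated counts for isoforms, cover counting error only, and as the libraries carry no stated molecular identifiers, reads need not be independent molecules. Scripts (Python 3.11.15, scipy 1.17.1, numpy 2.4.6, pandas 2.3.3, matplotlib 3.10.9) were tested on simulated data with known changes. Isoform structure was set against the principal isoform in GENCODE 29 on GRCh38, the same build but another annotation release than the files.

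The members and gene lists were chosen with earlier results of these data known. Every member is named. Full values go to members past 1.5-fold, the 5 highest, 5 lowest and 5 with most counts, those past 10 points of non-coding share and the 5 with the largest share. From each other list, up to 3 genes per direction past 1.5-fold with at least 100 counts are named, with CLK1, SRPK1, SRRM2, PTBP1, SF3B1 and UPF1 in any case. Other isoforms and genes were named after their values were seen. Alternatives covered scaling (DESeq2 1.42.0 size factors among them), unit, minimum, threshold and isoform class.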

Additional observations from a re-analysis of the deposited data

How the results depend on the processing

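No paired analysis was possible because each condition had 1 library, and no replicate could be left out. With total counts, the deposited CPM or the deposited moderated log2 CPM, the median log2 ratio was -0.23 over all members, 0.20 over SR genes and -0.30 over hnRNP genes. Summed estimated transcript counts gave 0.18 for SR genes, and SRSF2 then stood at 1.46. A minimum of 1 count gave 2 members higher, and a minimum of 50 gave 2 lower and a median of -0.10, by the genes each lets in. Beyond 1.2-fold 6 were higher and 14 lower, beyond 2-fold 0 and 1, and 2 had a whole interval below 1.5-fold. Shares over all genes past 1.2-fold or 2-fold were not computed. Without the near-identical copies, an alternative chosen after seeing the data, 0 were lower, with medians of -0.064 over members and -0.17 over hnRNP genes. The signs of the SR and hnRNP medians were the same under every scaling. For the non-coding share, counting only decay isoforms gave 1 member higher, 3 lower and a median of -0.19 points, and -1.87 points for HNRNPH1. Over all 9895 genes this setting gave 3.3% higher and 3.75% lower. Only retained-intron isoforms gave 2 members higher and 1 lower, beside 7.15% and 1.56% of all genes. Estimated counts divided by length gave 3 higher and 2 lower of 30, with SRSF5 at 6.94 points, beside 14.2% and 8.15% of 9181 genes. A rule of 5 points gave 7 higher and 4 lower, beside 19.1% and 10.5% of all genes. One of 20 points gave 1 higher and 1 lower, beside 3.98% and 1.65%. With only genes whose GENCODE 29 isoforms are all listed, also chosen after seeing the data, 2 were higher, SRSF5 and SRSF11, and 0 lower. Over all 6707 such genes 7.62% were higher and 3.46% lower. The cause of these shifts was not tested except where the setting itself fixes it. Over all single members, 248 log2 ratios stayed within their counting interval under an alternative and 98 did not, and 121 share differences stayed within counting error, 92 did not and 1 changed sign.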
